A study of Bos taurus with 7 samples.

Results

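The 200 most abundant noncoding transcripts of bovine preantral follicles were examined in RNA sequencing of 7 libraries. They were chosen from the transcript tables by a fixed rule. Records with a RefSeq noncoding accession (prefix NR for curated and XR for predicted records) and a length of 200 bases or more were ranked by mean TPM over the 7 libraries, and the top 200 of 10197 such records were kept, out of 76123 transcripts in all. TPM expresses each transcript per unit of length and adds up to an equal sum in every library. Whole follicles of young Holstein Friesian dairy cows, untreated and isolated mechanically from abattoir ovaries, were collected after a short recovery in medium with insulin, transferrin, selenium and FSH. The 4 libraries of primary follicles (PF) held follicles whose oocyte is enclosed by a layer of cuboidal granulosa cells, and the 3 libraries of secondary follicles (SF) held follicles in which these cells form several layers. Each library was a pool of follicles, so RNA of oocytes and granulosa cells was read together. The animals behind each pool are not named in the labels, and p-values therefore reflect only how these libraries vary, which may be technical.

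Long noncoding RNAs are transcripts that are not translated into a sizeable protein. Some act in the nucleus on chromatin or splicing, others host the small nucleolar RNAs (snoRNAs) that guide the modification of ribosomal RNA, and many have no known role. Growing oocytes store RNA for the first divisions of the embryo, and noncoding transcripts are among those stored. The cDNA was primed on poly(A) tails without a record of strand, so reads of a transcript and of a gene that overlaps it on the opposite strand cannot be told apart.

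The libraries held 18788105 to 23764615 estimated counts. PF replicate 4 stood apart by its markers and did not enter the tests of single transcripts. Its summed TPM over the stromal fibroblast list (15 of 16 genes measured) was 6048, where PF replicates 1 to 3 had 432 to 628 and SF had 267 to 547. Over the 24 oocyte genes it was 712, where PF replicates 1 to 3 had 4138 to 7970 and SF had 374 to 2688. The 18 granulosa genes summed to 2452 to 3613 TPM in PF replicates 1 to 3, 3625 in PF replicate 4 and 8386 to 9606 in SF. The theca list (8 genes) and the smooth muscle and pericyte list (9 genes) were also highest in PF replicate 4, at 1519 and 1050 TPM against at most 418 and 265 elsewhere. In all 7 libraries the endothelial, immune and ovarian surface epithelium lists (10, 10 and 6 genes) stayed at or below 104, 310 and 426 TPM, with the immune gene *C1QA* at 0. The endothelial and immune maxima were in SF replicate 1, where the immune gene *CD74* gave 262 TPM. Elsewhere the immune sum was 10.2 to 93.7 TPM. The surface epithelium maximum was in SF replicate 3, where *UPK1B* gave 384 TPM. In these bulk libraries fewer cells of a type and less RNA per cell cannot be told apart.

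The label long noncoding fitted part of the 200. By accession, 95 could be matched to 93 genes of a RefSeq table and 105 could not. Of the matched transcripts, 60 belonged to genes of the long noncoding type, 20 to coding genes of which they are noncoding variants, 10 to structured or other RNAs and 5 to transcribed pseudogenes. The structured RNAs were the signal recognition particle RNA *RN7SL1*, the 18S ribosomal RNA *RN18S1*, the telomerase RNA *TERC*, 3 snoRNA genes (LOC112442864, LOC112442865 and LOC112442867, all within the table's *TEX14* interval) and 4 records of other types. Only 16 of the 200 were curated records. Their lengths ran from 201 to 10277 bases with a median of 1008, and 41 of the matched transcripts lay in genes that overlap another gene.

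Abundance fell steeply with rank. Mean TPM was 3649 at rank 1 and 13.4 at rank 200, with a median of 26.9, and the first 10 transcripts held 60.3% of the summed mean TPM. At 1 TPM or more in every library were 181 of the 200, and 13 had 0 counts in at least 1 library. The median coefficient of variation over the 7 libraries was 52.2%, and 7 transcripts stayed below 20%. The steadiest was XR_808103.3 with 13.4%, whose 7 values lay between 11.1 and 16.6 TPM.

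**Figure D1:**
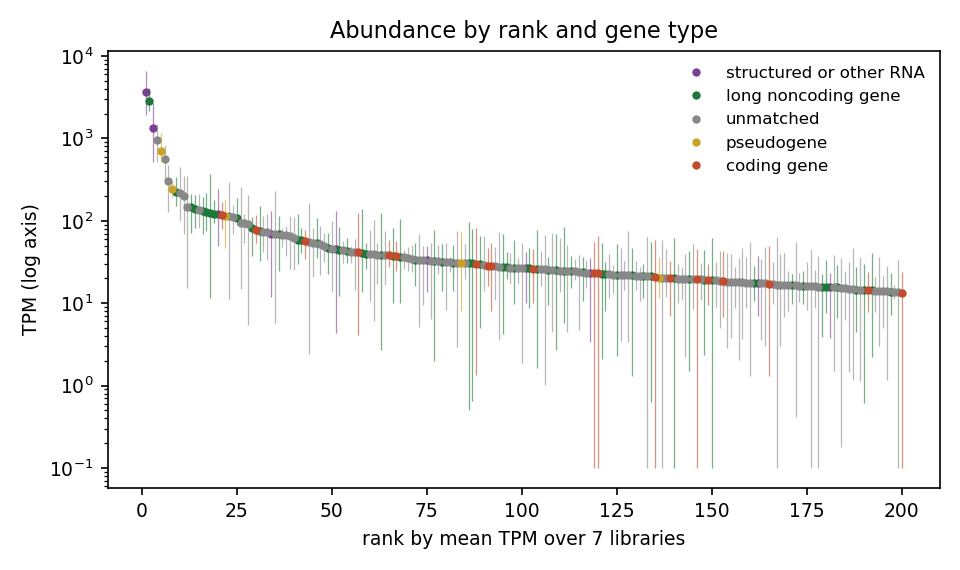
Mean TPM of each of the 200 transcripts (points, log axis) against rank, coloured by the type of the matched gene, with vertical lines from the lowest to the highest of the 7 libraries (a lowest value under 0.1 TPM is drawn at 0.1). The first ranks run from 3649 TPM down to about 200 TPM within 11 transcripts, and the lines lengthen among the lower ranks, where 13 transcripts reach 0 in a library.

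The share of all estimated counts held by the 200 transcripts was 0.867%, 0.939%, 1.37% and 0.776% in PF replicates 1 to 4, and 1.13%, 0.996% and 1.08% in SF replicates 1 to 3. PF averaged 0.988% ± 0.264 (SD, n = 4) and SF averaged 1.07% ± 0.0703 (SD, n = 3), and the SF range lay inside the PF range. Without PF replicate 4 the PF mean was 1.06% ± 0.272 (SD, n = 3). The members' own share received no test, since the transcripts were chosen by their level in these libraries. All 10197 noncoding transcripts together held 1.84%, 1.95%, 2.42% and 1.42% of the counts in PF and 1.99%, 1.88% and 1.88% in SF. Their group means, 1.91% and 1.92%, did not differ beyond the spread (difference 0.00984 percentage points, two-sided exact permutation p = 0.943 over 35 splits), nor did they without PF replicate 4 (difference -0.152, exact permutation p = 0.7, where 0.1 is the smallest p that 3 against 3 allows).

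PF replicate 3 held the highest share, and the structured RNAs were where it stood out. *RN7SL1* and *RN18S1* together took 0.439% of its counts, against 0.0775%, 0.129% and 0.0858% in PF replicates 1, 2 and 4 and 0.263%, 0.175% and 0.227% in SF. Without the 10 structured or other RNAs the share of the rest was 0.768%, 0.792%, 0.925% and 0.689% in PF and 0.863%, 0.814% and 0.851% in SF. The 60 transcripts of long noncoding genes held 0.194%, 0.214%, 0.244% and 0.204% of the counts in PF and 0.214%, 0.180% and 0.165% in SF, and the 105 unmatched transcripts held 0.347% to 0.471% per library, the largest portion of the 5 types in 7 of 7 libraries.

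**Figure D2:**
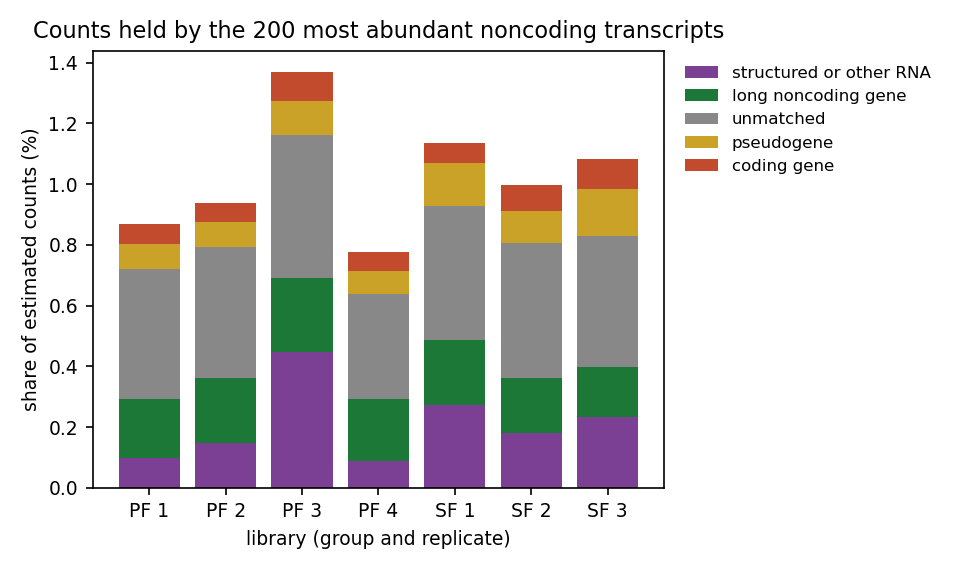
Share of estimated counts (%) held by the 200 transcripts in each library, stacked by the type of the matched gene. Totals lie between 0.776% (PF 4) and 1.37% (PF 3), and the structured RNAs make up 0.446% in PF 3 against 0.0873% to 0.272% elsewhere.

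As the cDNA was primed on poly(A) tails, how well the TPM of structured RNAs reflects their amount is open and was not tested. *RN7SL1*, the RNA scaffold of the particle that brings nascent secreted proteins to the endoplasmic reticulum, was the record with the highest mean TPM. It reached 1904, 3196, 6637 and 2314 TPM in PF and 2703, 3995 and 4794 TPM in SF. *RN18S1*, the RNA of the small ribosomal subunit, stood at rank 3 with 522, 782, 2664 and 630 TPM in PF and 1753, 1258 and 1749 TPM in SF. In both, PF replicate 3 was the highest library, and the PF and SF values overlapped (log2 fold change of SF over PF ± SE, 0.00 ± 0.74 and 0.28 ± 0.86, DESeq2 adjusted p = 0.999 and 0.92). When PF replicate 3 was dropped the value of *RN18S1* was 1.45 and passed (DESeq2 adjusted p = 0.044), and without PF replicate 1 or 2 it was -0.15 or -0.04 (0.97 and 0.99). *TERC*, the template of telomerase, gave 14.8, 33, 24.3 and 10.1 TPM in PF and 41.2, 26.5 and 38.4 TPM in SF, also with overlap (0.67 ± 0.54, DESeq2 adjusted p = 0.49). With these 6 libraries, none of the 10 structured or other RNAs and none of the 5 pseudogene transcripts passed the test.

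The long noncoding gene with the highest level was LOC101905979 (552 bases, between *SERTAD2* and *SLC1A4*). Its TPM was 2118, 2364, 3134 and 4060 in PF and 2428, 2324 and 3294 in SF, so that it exceeded 2000 TPM in every library and was highest in PF replicate 4 (0.17 ± 0.44, DESeq2 adjusted p = 0.90). LOC101904529 (331 bases, between *CCM2* and *MYO1G*) followed with 175, 207, 279 and 341 TPM in PF and 153, 160 and 232 TPM in SF (-0.19 ± 0.50, DESeq2 adjusted p = 0.91). These transcripts were each the nearest in pattern to the other among the 200 (Pearson r = 0.90 of log2(TPM + 1) over 7 libraries, given as a description, with PF replicate 4 highest in both). LOC112445098 (477 bases) varied from 82.5 to 204 TPM in PF and from 101 to 183 TPM in SF. Its nearest transcript was XR_003033517.1 (r = 0.82), which is also 477 bases long and ranged from 121 to 209 TPM in PF and from 80.9 to 151 TPM in SF.

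Unmatched records and pseudogenes filled much of the top ranks. XR_003032756.1 (377 bases) gave 604, 518, 880 and 644 TPM in PF and 1258, 1265 and 1487 TPM in SF. The pseudogene transcript LOC782776 gave 522, 517, 560 and 546 TPM in PF and 894, 713 and 1175 TPM in SF. In both, every SF library lay above every PF library, PF replicate 4 included, yet neither passed (1.08 ± 0.46 and 0.91 ± 0.40, DESeq2 adjusted p = 0.12 and 0.14). When PF replicate 3 was dropped, XR_003032756.1 passed (1.48, DESeq2 adjusted p = 0.0017), as it did in the fit with a library number term (0.97, adjusted p = 0.0086). XR_003033449.1 (765 bases) gave 758, 834, 590 and 386 TPM in PF and 564, 493 and 320 TPM in SF. Its SF values lay below PF replicates 1 to 3, with PF replicate 4 among them, and it did not pass (-0.56 ± 0.31, DESeq2 adjusted p = 0.27). XR_001495520.2, the pseudogene transcript LOC782054 and XR_003037282.1 overlapped between the groups, at 128 to 471, 193 to 300 and 69.1 to 352 TPM.

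Of the long noncoding genes, 6 carried a descriptive symbol. *TMSB15B*, whose symbol is that of a thymosin gene but whose transcript is listed here as noncoding, gave 124, 71.6, 121 and 142 TPM in PF and 211, 189 and 156 TPM in SF. All SF libraries lay above all PF libraries, but the difference did not pass (0.90 ± 0.40, DESeq2 adjusted p = 0.15). *MTLN*, listed as noncoding although it is known to encode the small mitochondrial peptide mitoregulin, gave 150, 219, 99.6 and 113 TPM in PF and 142, 93.7 and 75.6 TPM in SF (-0.45 ± 0.46, DESeq2 adjusted p = 0.63). The C23H6orf52 transcript gave 76.4, 120, 61.0 and 29.8 TPM in PF and 44.7, 38.2 and 41.0 TPM in SF. It lay below PF replicates 1 to 3 in every SF library without passing (-0.94 ± 0.38, DESeq2 adjusted p = 0.097). *SNHG3*, a host of snoRNAs, gave 10, 22, 106 and 38.6 TPM in PF and 26.8, 24.7 and 28.9 TPM in SF, with PF replicate 3 far above the rest (-0.79 ± 1.05, DESeq2 adjusted p = 0.75). *CEBPZOS*, antisense to *CEBPZ* by its name, stayed between 19.7 and 41.9 TPM and *C17H12orf76* between 7.51 and 33.6 TPM (DESeq2 adjusted p = 0.68 and 0.71).

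Few well known noncoding RNAs were found by name among the 200. The lists were searched by the symbol of the matched gene alone. As 105 of the 200 and 6594 of all 10197 noncoding records had no match, a listed RNA may be among them. Of 11 imprinted noncoding genes, 5 had a noncoding record matched by name, and none of these records reached the 200. A single record passed among the 2 tested, *AIRN*, the antisense RNA of the *IGF2R* locus, which was named after its values were seen. It gave 0, 0, 0.367 and 2.36 TPM in PF and 2.65, 1.91 and 4.68 TPM in SF (4.66 ± 1.65, DESeq2 adjusted p = 0.049). This call was lost without PF replicate 1 or 2 or any SF library (DESeq2 adjusted p = 0.13, 0.13, 0.24, 0.23 and 0.33) and with all 7 libraries (0.69). It was also lost with the count filter (0.18), the library number covariate (0.089), edgeR (0.36) and limma on log2(TPM + 1) and log2(TPM + 0.1) (0.093 and 0.098). Of 4 genes of the X inactivation centre 1 had matched records, and of the 3 records 2 were tested and none passed. The nuclear body list (8 genes) and the microRNA host list (12 genes) had no record matched by name. *TUG1*, a gene of the nuclear body list, overlaps the member LOC100848149, which is described below under its own symbol. Of 28 snoRNA host genes 4 were matched, with 5 records, of which *SNHG3* alone was among the 200, and none of the 5 passed (median log2 fold change -0.35). Among 16 polymerase III and processing RNAs, *RN7SL1* and *TERC* were members and *RMRP* ranked 217, and none passed (median 0.00). The splicing factor list (55 genes) had 17 noncoding records, 10 tested with none past the threshold (median 0.37), and the ribosomal protein list (82 genes) had 3, none past it (median 0.48). The median over all transcripts tested was 0.05. Their members here were a variant of *HNRNPA2B1* with 6.88 to 19.3 TPM in PF and 15.8 to 42.4 TPM in SF (1.19 ± 0.76, DESeq2 adjusted p = 0.35), and a variant of *RPS27*.

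Differences between the stages were then tested transcript by transcript. In the Wald test of DESeq2 on estimated counts, with PF replicates 1 to 3 against the 3 SF libraries, 4.79% of the 37737 transcripts tested were higher in SF and 5.05% lower at an adjusted p below 0.05 (9.84% in either direction). Of the 200 noncoding transcripts, all tested, 8 were higher (4.00%) and 25 lower (12.5%). The rank used the mean over 4 PF and 3 SF libraries, so a transcript high in PF alone could enter through those values. With the 200 chosen by median TPM, 8 were higher and 16 lower. Coding transcripts with a mean TPM at or above that of rank 200 gave 7.08% higher and 9.72% lower, of 8304, and all noncoding transcripts tested gave 3.23% and 3.99%, of 3684. The median log2 fold change was 0.12 over the 200, with 107 above 0 and 93 below, and 0.05 over all transcripts tested. In 25 of the 200 the SF values lay wholly above those of PF replicates 1 to 3 and in 54 wholly below, against 11.3% and 12.6% of all transcripts tested. By gene type, the long noncoding genes gave 1 higher and 11 lower of 60, the unmatched records 5 and 11 of 105, and the variants of coding genes 2 and 3 of 20.

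These calls depended on the test. The quasi-likelihood test of edgeR called 0 of 199 members and 0 of 31163 transcripts, with 44 members and 4434 transcripts at an unadjusted p below 0.05 and a smallest adjusted p of 0.138. limma on log2(TPM + 1) also called none of the 200, with 62 at an unadjusted p below 0.05. With PF replicate 4 included, 6 of the 33 DESeq2 calls remained, and 8 of the 33 passed in every fit that left out 1 library. In the libraries with numbers below 40 (PF replicates 1 and 2, SF replicate 1), the 25 fallers had a median difference of -2.27 on the log2(TPM + 1) scale and the 8 risers of 1.17. In PF replicate 3 and SF replicates 2 and 3, whose numbers lie above 40, the medians were -2.29 and 1.23. Since the groups of all 33 do not overlap, the choice of the calls fixes these directions.

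**Figure D3:**
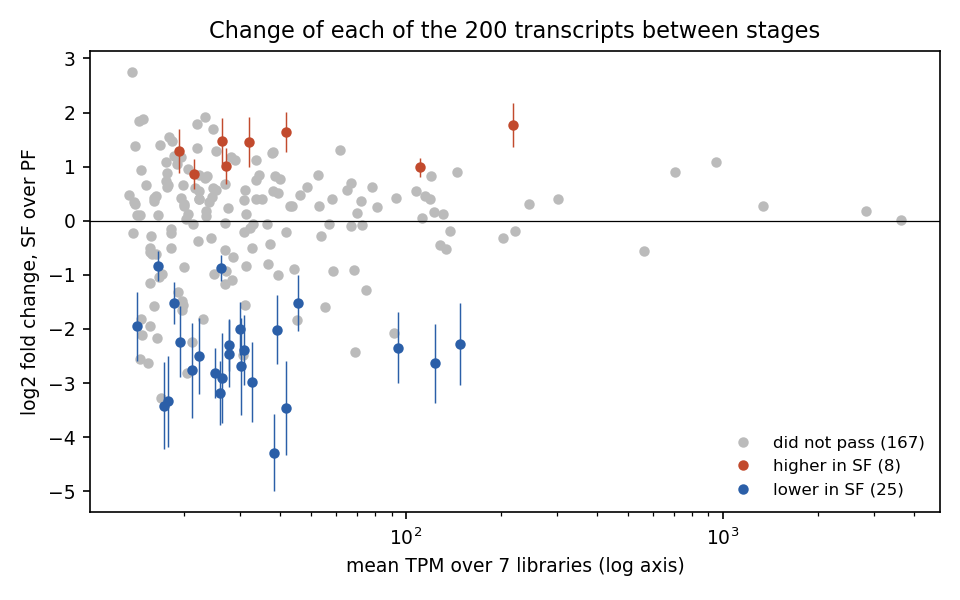
Log2 fold change of SF over PF (y axis) against mean TPM (log x axis) for the 200 transcripts, with bars of ± 1 SE on the 33 that passed the DESeq2 threshold. The 25 that were lower in SF reach -4.29 and lie mostly below 100 TPM, while the 8 that were higher stay between 0.86 and 1.77.

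Among the 11 long noncoding genes that fell, LOC101902234 (453 bases, between *NXF2* and *ARMCX2*) fell most. Its TPM was 83.0, 123 and 29.4 in PF replicates 1 to 3, 22.6 in PF replicate 4, and 2.90, 2.74 and 4.90 in SF. PF replicate 4 lay with the PF group here (-4.29 ± 0.71, DESeq2 adjusted p = 1.8e-07), and the call held without each library in turn (highest adjusted p 0.00022) and with PF replicate 4 included (-4.06, adjusted p = 8.9e-06). LOC101907070 (1430 bases, between *CYP4B1* and *EFCAB14*) gave 76.4, 56.5 and 61.6 TPM in PF replicates 1 to 3 and 8.60, 13.4 and 2.01 TPM in SF (-2.98 ± 0.74, DESeq2 adjusted p = 0.0014). LOC112448433 (482 bases, in a gene that overlaps *SCG5*, a chaperone of the secretory pathway) gave 49.4, 69.7 and 33.2 TPM and 7.76, 8.0 and 4.21 TPM (-2.81 ± 0.46, DESeq2 adjusted p = 1.2e-07). PF replicate 4 was at 10 and 2.67 TPM in these genes, within or below the SF values, and both calls ended when it was kept (adjusted p = 0.059 and 0.16), though neither ended without any other library. *SCG5* itself was at 76.9 ± 12.4 TPM in PF replicates 1 to 3 and 135 ± 31.2 TPM in SF (SD, n = 3), the opposite order to that of the noncoding transcript.

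LOC104973994 (855 bases), between *GSDMC* and the growth regulator *MYC*, was the most abundant of the long noncoding genes that fell. It gave 371, 244 and 127 TPM in PF replicates 1 to 3, 11.6 TPM in PF replicate 4 and 54.9, 43.6 and 11.7 TPM in SF (-2.64 ± 0.74, DESeq2 adjusted p = 0.0065). Both groups spread widely, and the call was lost when PF replicate 1, PF replicate 2 or SF replicate 2 was left out (adjusted p = 0.088, 0.055 and 0.062) and with PF replicate 4 included (0.28). *MYC* was at 0.111, 9.93 and 98.0 TPM in PF replicates 1 to 3, 112 TPM in PF replicate 4 and 22.1, 99.4 and 181 TPM in SF. Its highest libraries were thus PF replicates 3 and 4 and SF replicates 2 and 3, those with library numbers above 40.

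LOC112444603 (755 bases) gave 37.5, 76.2 and 43.4 TPM in PF replicates 1 to 3, 6.57 TPM in PF replicate 4 and 11.5, 6.70 and 1.63 TPM in SF (-2.91 ± 0.83, DESeq2 adjusted p = 0.0080), and the call ended without PF replicate 2 or SF replicate 2 (adjusted p = 0.10 and 0.087). LOC112443450 (773 bases, next to *CRBN*, a receptor of a ubiquitin ligase) gave 55.7, 47.5 and 26.0 TPM, 0.625 TPM in PF replicate 4 and 6.48, 10.7 and 1.02 TPM in SF (-2.76 ± 0.88, DESeq2 adjusted p = 0.023). It was lost when PF replicate 1, PF replicate 2 or SF replicate 1 was left out (adjusted p = 0.15, 0.13 and 0.091). LOC112446000 (383 bases, between *LMO4* and *HS2ST1*) gave 33.1, 52.5 and 43.6 TPM, 4.49 TPM in PF replicate 4 and 10.8, 8.62 and 2.29 TPM in SF (-2.50 ± 0.70, DESeq2 adjusted p = 0.0071), and was lost when PF replicate 2, PF replicate 3 or SF replicate 2 or 3 was left out (adjusted p = 0.11, 0.075, 0.088 and 0.066). In all 3 genes PF replicate 4 lay among or below the SF libraries, and with it kept none passed (adjusted p = 0.12, 0.39 and 0.23).

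The noncoding transcripts of LOC781152, a gene that the table lists as coding, fell together. XR_003033726.1 gave 125, 118 and 19.5 TPM in PF replicates 1 to 3, 9.14 TPM in PF replicate 4 and 11.2, 4.13 and 5.44 TPM in SF (-3.46 ± 0.87, DESeq2 adjusted p = 0.0017). XR_003033725.1 gave 48.9, 49.1 and 11.0 TPM, 2.43 TPM in PF replicate 4 and 3.92, 4.03 and 1.31 TPM in SF (-3.42 ± 0.80, DESeq2 adjusted p = 0.00067). Both share a gene, so their reads can be exchanged between them. PF replicate 3 stood well below PF replicates 1 and 2 in each, and both calls held without any 1 of the 6 libraries (highest adjusted p 0.038 and 0.029). With PF replicate 4 included the first passed and the second did not (adjusted p = 0.049 and 0.079).

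Of the unmatched records that fell, XR_003036862.1 (647 bases) gave 40.4, 55.1 and 13.1 TPM in PF replicates 1 to 3, 6.13 TPM in PF replicate 4 and 5.80, 2.62 and 1.31 TPM in SF (-3.33 ± 0.84, DESeq2 adjusted p = 0.0019). It ended without PF replicate 2 (adjusted p = 0.053). XR_001495148.2 (2121 bases) gave 63.3, 66.8 and 33.1 TPM, 1.00 TPM in PF replicate 4 and 7.74, 6.72 and 2.35 TPM in SF (-3.19 ± 0.59, DESeq2 adjusted p = 5.0e-06), and passed without each of the 6 libraries. The 12th most abundant of the 200, XR_003035363.1 (476 bases), gave 335, 354 and 160 TPM, 25.3 TPM in PF replicate 4 and 88.1, 57.7 and 15.4 TPM in SF (-2.27 ± 0.75, DESeq2 adjusted p = 0.031), and was lost when PF replicate 1, PF replicate 2 or SF replicate 2 was left out (adjusted p = 0.16, 0.18 and 0.17). With PF replicate 4 included, XR_003036862.1 passed (adjusted p = 0.032) and the other two did not (0.19 and 0.33). Beyond the transcripts described, LOC101902862 (-2.30 ± 0.48, DESeq2 adjusted p = 8.3e-05) and XR_240539.4 (-2.46 ± 0.61, DESeq2 adjusted p = 0.0017) also passed without each of the 6 libraries and were named for that after their values were seen. LOC101902862 lies in a gene that overlaps *THOC1* and *COLEC12*, which were at 105 ± 40.2 and 62.1 ± 25.3 TPM in PF replicates 1 to 3 and 31.0 ± 2.09 and 10.8 ± 1.16 TPM in SF (SD, n = 3). With PF replicate 4 included neither passed (adjusted p = 0.27 and 0.16).

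The oocyte markers are given beside the fallers. The mean log2(TPM + 1) of the 24 oocyte genes was 6.81, 6.93 and 5.92 in PF replicates 1 to 3, 3.73 in PF replicate 4 and 5.03, 5.18 and 2.99 in SF. Over these 7 libraries, 34 of the 200 transcripts (17.0%) had a Pearson correlation above 0.9 with this score, against 5.10% of all transcripts tested, a share not matched in abundance. Of the 25 fallers, 18 were among the 34 (72.0%). Of all 1904 transcripts called lower in SF, 678 (35.6%) had such a correlation. A transcript called lower in SF tends to follow a score that is itself lower there. Across the 25 the correlation ran from 0.53 to 0.99, lowest in XR_816534.3. LOC101902234, the largest faller, had 0.67. These values are a description over libraries that entered the comparison itself, and the part of the oocyte share of RNA in the falls was not tested.

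Fewer transcripts rose. XR_003030770.1 (218 bases), the 10th most abundant, gave 99.9, 99.5 and 129 TPM in PF replicates 1 to 3, 126 TPM in PF replicate 4 and 289, 453 and 326 TPM in SF (1.77 ± 0.40, DESeq2 adjusted p = 0.00043). XR_235246.4 (2829 bases) gave 85.2, 85.0, 76.4 and 69.0 TPM in PF and 156, 149 and 153 TPM in SF (0.99 ± 0.18, DESeq2 adjusted p = 2.1e-06). In both, all SF libraries lay above all 4 PF libraries, and both passed with PF replicate 4 included (adjusted p = 0.00080 and 3.6e-08). The first ended without PF replicate 2 or SF replicate 2 (adjusted p = 0.052 and 0.082) and the second without PF replicate 1, PF replicate 2 or SF replicate 1 (0.081, 0.070 and 0.068).

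LOC100848149 (4890 bases) was the only long noncoding gene that rose. It overlaps *TUG1*, a long noncoding RNA gene first described in the retina, and gave 14.2, 14.0, 25.4 and 27.2 TPM in PF and 44.9, 52.3 and 45.3 TPM in SF (1.46 ± 0.46, DESeq2 adjusted p = 0.023). All SF libraries lay above all PF libraries, but the call was lost when PF replicate 1, PF replicate 2 or SF replicate 1 or 2 was left out (adjusted p = 0.19, 0.21, 0.15 and 0.21) and with PF replicate 4 included (0.17). XR_003037681.1 (4319 bases) gave 30.5, 17.0 and 14.5 TPM in PF replicates 1 to 3, 54.6 TPM in PF replicate 4 and 59.0, 56.4 and 60.8 TPM in SF (1.63 ± 0.37, DESeq2 adjusted p = 0.00031), and ended without PF replicate 2 (adjusted p = 0.054). XR_139644.4 gave 17.0, 17.2 and 19.6 TPM, 33.8 TPM in PF replicate 4 and 40.7, 29.7 and 31.1 TPM in SF (1.00 ± 0.33, DESeq2 adjusted p = 0.030), and XR_003030187.1 gave 17.3, 18.4 and 10.6 TPM, 25.8 TPM in PF replicate 4 and 24.8, 27.3 and 25.8 TPM in SF (0.86 ± 0.28, DESeq2 adjusted p = 0.026). The first of these calls passed only without PF replicate 3 and the second only without SF replicate 3, and with any other library left out they ended (adjusted p = 0.11 to 0.32 and 0.14 to 0.31). In these last 3 records PF replicate 4 lay at or near the SF level, and with it kept none passed (adjusted p = 0.50, 0.62 and 0.64).

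A noncoding variant of *SMAD4*, the shared mediator of TGF-beta and BMP signals, gave 19, 9.98 and 13.7 TPM in PF replicates 1 to 3, 31.5 TPM in PF replicate 4 and 31.6, 32.5 and 45.2 TPM in SF (1.47 ± 0.43, DESeq2 adjusted p = 0.010). The curated coding transcript of the gene gave 18.4, 15.5, 16.0 and 37.9 TPM in PF and 31.5, 36.1 and 48.0 TPM in SF. It passed the same test (1.32 ± 0.35, DESeq2 adjusted p = 0.0031). Its SF values also lay above PF replicates 1 to 3, but PF replicate 4 lay among them. A variant of *SLC35F5*, a member of a solute carrier family, gave 14.1, 9.58 and 9.53 TPM, 27.2 TPM in PF replicate 4 and 25.1, 18.4 and 30.3 TPM in SF (1.28 ± 0.41, DESeq2 adjusted p = 0.022). The calls of both noncoding variants were lost when PF replicate 1, 2 or 3 or SF replicate 1 was dropped (adjusted p = 0.056, 0.14, 0.056 and 0.079 for *SMAD4*, and 0.13, 0.25, 0.12 and 0.18 for *SLC35F5*). That of *SMAD4* was also lost without SF replicate 2 (0.089) and that of *SLC35F5* without SF replicate 3 (0.064). With PF replicate 4, whose values lay at the SF level, neither passed (0.47 and 0.68). A variant of *WDSUB1* was in turn lower in SF, with 82.8, 58.2 and 33.1 TPM in PF replicates 1 to 3, 10.9 TPM in PF replicate 4 and 11.8, 12.4 and 1.34 TPM in SF (-2.69 ± 0.90, DESeq2 adjusted p = 0.033). It was lost when PF replicate 1 or 2 or SF replicate 1 or 2 was dropped (adjusted p = 0.18, 0.14, 0.054 and 0.083), with PF replicate 4 included (0.16) and with TMM factors (0.056). The most abundant coding transcript of *WDSUB1* gave 42.9, 19.9, 13.5 and 4.29 TPM in PF and 4.87, 9.59 and 0.46 TPM in SF. It did not pass (-2.29 ± 1.07, DESeq2 adjusted p = 0.17). The other matched coding transcripts averaged 0.44 to 2.08 TPM, with changes in both directions.

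**Figure D4:**
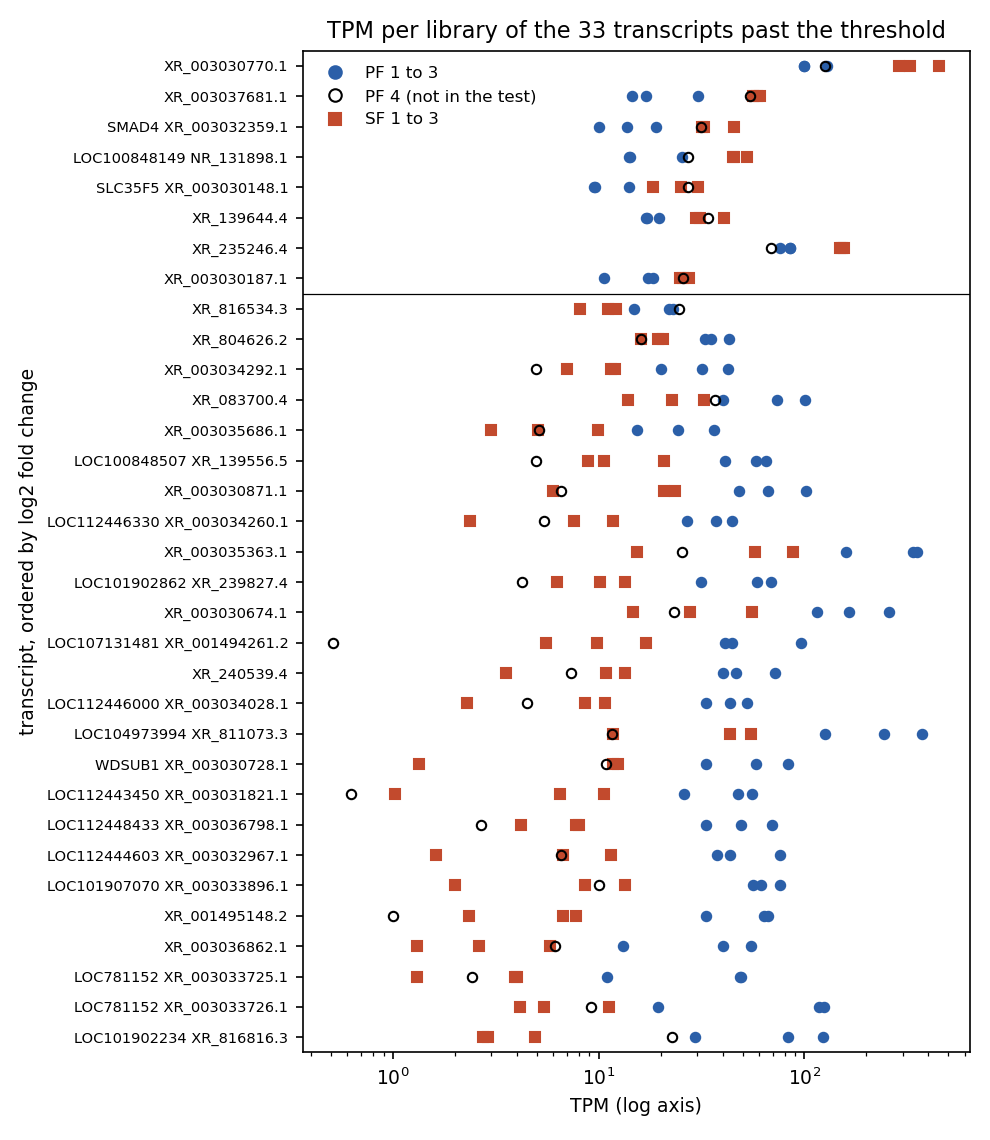
TPM per library (log x axis) of the 33 transcripts past the DESeq2 threshold, ordered by log2 fold change, with filled circles for PF replicates 1 to 3, open black circles for PF replicate 4 and squares for SF. The 8 risers stand above the line and the 25 fallers below it, and in 21 of the 25 fallers the open circle lies among or left of the squares, with LOC101902234 (22.6 TPM) as an exception.

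Whether a noncoding variant moved apart from the other transcripts of its gene was asked of 25 members with matched sister transcripts. Their share of the gene's TPM, taken per library and averaged over the 7 libraries, ran from 0.332% (*RPS27*) to 97.9%. By this mean share 14 of the 25 held more than 50%. limma on the log2 ratio of the variant to the rest of its gene called none of the 25 and none of 28626 transcripts (0.00% in each direction), with 3 of the 25 and 3871 in all at an unadjusted p below 0.05 and a smallest adjusted p of 0.262 among the 25. Those 3 were named after their values were seen. The *SZRD1* variant gave 37.9, 36.3, 27.1 and 29.4 TPM in PF and 30.0, 47.2 and 58.5 TPM in SF, while the curated coding transcript gave 33.3, 40.5, 26.5 and 32.1 TPM in PF and 6.54, 14.4 and 4.92 TPM in SF (log2 ratio change 1.93 ± 0.53, limma adjusted p = 0.26). The log2 ratio differed by 1.75 ± 0.63 for *NGRN* and by -1.67 ± 0.50 for *C23H6orf52*, and neither passed (limma adjusted p = 0.32 and 0.27).

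A split of another kind followed the library number. In 26 of the 200 (13.0%) all 4 libraries with numbers above 40 (PF replicates 3 and 4, SF replicates 2 and 3) exceeded all 3 with lower numbers, against 4.97% of all transcripts tested, and in 11 the reverse held, against 4.97%. The shares over all transcripts were not matched to the 200 in abundance. None of these 37 passed the test between the stages. Such a split forces the values of PF replicates 1 to 3 and SF to overlap, while none of the 33 calls overlapped. That none passed therefore follows largely from the split itself. XR_235867.4 gave 13.5 and 11.2 TPM in PF replicates 1 and 2 and 17.4 TPM in SF replicate 1, but 297, 125, 132 and 193 TPM in PF replicates 3 and 4 and SF replicates 2 and 3. The noncoding variant of *EIF4A2*, a helicase of translation initiation, was at 0 in the first 3 of these libraries and at 58.7, 19.9, 19 and 46.0 TPM in the other 4. A variant of the transcription factor gene *KLF6* was at 0.162, 0 and 1.27 TPM against 24.2, 44.1, 28.2 and 64.4 TPM. These 3 were named after their values were seen. The labels do not say what the library number stands for, and its part in these levels was not tested.

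**Figure D5:**
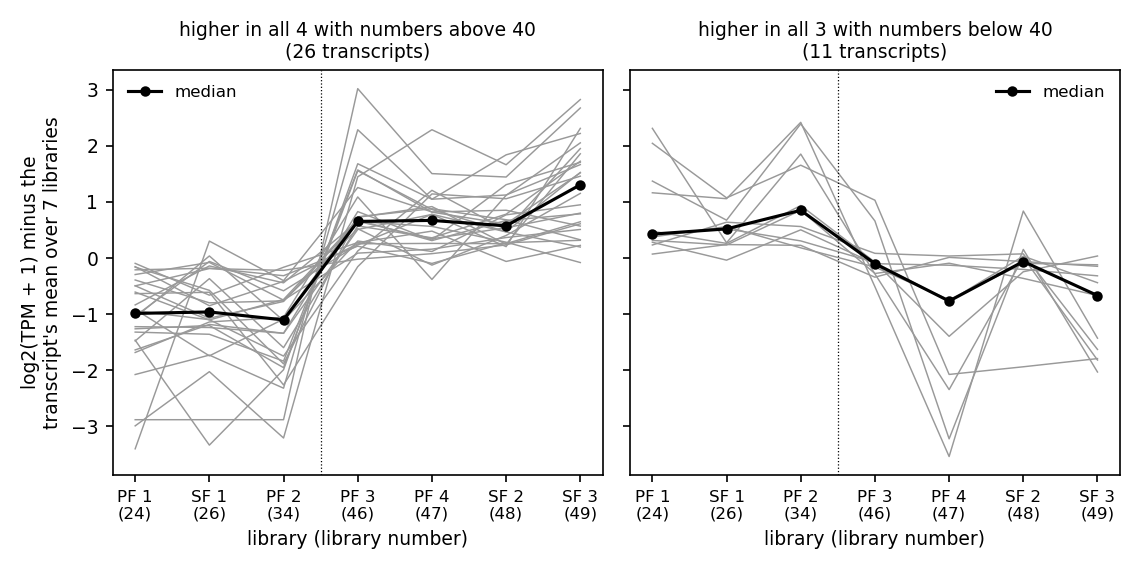
Log2(TPM + 1) of each transcript minus its mean over the 7 libraries, with libraries ordered by library number, for the 26 transcripts higher in all libraries numbered above 40 (left) and the 11 higher in all below 40 (right). Grey lines are transcripts, the black line is their median, and the step falls between the libraries numbered 34 and 46.

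PF replicate 4 was the highest of the 7 libraries in 21 of the 200 transcripts, and at least 2-fold above the next in 3, which were named after their values were seen. LOC104972545 gave 139 TPM there, against 13.6 to 34.7 TPM in the other 6 libraries. LOC782977 gave 109 TPM against 35 to 53.5 TPM, and XR_003037691.1 gave 46.0 TPM against 11.8 to 19.4 TPM.

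At the edge of the rule, the transcripts just inside were XR_808103.3, XR_003033671.1 and the *RPS27* variant, with mean TPM of 13.8, 13.7 and 13.4. The *RPS27* variant was at 0 in PF replicate 1 and at 6.99 to 24.2 TPM in the other libraries. Just outside lay variants of *USP30*, *CCSER2* and *HNRNPA2B1*, with 13.4, 13.3 and 13.2. The edge thus runs through a gently falling slope.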

How the data were processed

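Whole follicles were pooled, RNA was extracted, and cDNA was made with the SMART-Seq v4 kit. The authors trimmed the reads with Trim Galore and fastp and quantified them with Salmon against the bovine ARS-UCD1.3 transcriptome. They deposited, per library, an estimated count and a TPM for each RefSeq transcript. Groups, replicate numbers and library numbers came from the labels. The members and gene lists were chosen with earlier results of these data known.

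Accessions were matched without their version to RefSeq gene records of assembly ARS-UCD2.0, for names and neighbours alone. This paired 50205 of 76123 transcripts and 95 of the 200 members, 20 of them with the same version. As the builds differ, no coordinates are given. No transcript sequences were used here. Salmon divides reads that fit several transcripts, so near-identical or overlapping records can exchange counts.

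Estimated counts were rounded and all transcripts were compared by DESeq2 1.42.0 (Wald test, R 4.3.3, median-of-ratios size factors, default independent filtering, Benjamini-Hochberg adjusted p below 0.05), PF replicates 1 to 3 against SF, since the study set PF replicate 4 aside. Alternatives were edgeR 4.0.16, limma 3.58.1, TMM factors, a minimum of 10 counts in 3 or more libraries, an effective length offset, all 7 libraries, a replicate block, the library number as a covariate, stricter thresholds, other rankings of members, and each library left out. Shares within genes used limma on log2((TPM + 0.5)/(rest + 0.5)) for genes of 1 TPM or more in at least 3 libraries. The fits were also run on simulated counts with known changes, and the outcome is not reported here. Libraries of a group were compared pairwise, and none duplicated another (chi-square per degree of freedom 94.1 to 338).

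The named transcripts were the 15 most abundant, up to 12 of the largest rises (8 were called) and the 12 largest falls among non-overlapping calls, long noncoding genes with a symbol that is no LOC number, members of the gene lists, and those at the edge of rank 200. Exceptions are marked in the text. Not every marker list is reported here.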

Additional observations from a re-analysis of the deposited data

Results flagged for a closer look

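In the 4 PF libraries, 46 sets of values were examined for a library far from the others, and 3 were found, where chance gives about 1 in 20. The *RN18S1* record, the 18S ribosomal RNA, was at 2664 TPM in PF replicate 3 and at 522 to 782 TPM in the other PF libraries. XR_139644.4, one of the 8 transcripts higher in SF, was at 33.8 TPM in PF replicate 4 and at 17.0 to 19.6 TPM in the others, and its call ended when that library was kept (DESeq2 adjusted p = 0.62). *CEBPZOS* was at 41.9 TPM in PF replicate 4 and at 22.9 to 24.6 TPM in the others.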

How the results depend on the processing

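The numbers of the 200 transcripts called higher and lower (8 and 25 by DESeq2) moved under many settings. They were 0 and 0 with edgeR, limma on log2(TPM + 1) and limma on log2(TPM + 0.1), which called 0, 41 and 346 of all transcripts against 3712 by DESeq2. With all 7 libraries they were 3 and 4 (1432 in all), with the library number as a covariate 14 and 23 (7001 in all), and at an adjusted p below 0.01 there were 3 higher (2175 in all). Leaving out 1 library gave 1 to 18 higher, 9 to 25 lower and 3344 to 5948 in all, lowest for the 200 without PF replicate 2 (1 and 9). Choosing the 200 by median TPM or by mean estimated counts gave 16 lower in each case. Matching accessions with their version, an alternative chosen after seeing the data, left 9 of the 60 long noncoding genes. TMM factors, the count filter and the length offset left 28, 30 and 33 of the 33 calls past the threshold, and no named call reversed in any setting run. Deviations from the group mean correlated at 0.194, -0.032 and 0.278 between PF and SF libraries of the same replicate number. Between libraries of different numbers the correlations ran from -0.318 to 0.166. Whether the replicate numbers pair the libraries is not in the labels and was not tested. The replicate block gave 28 higher and 42 lower (8317 in all), XR_003032756.1 among those gained (DESeq2 adjusted p = 3.8e-06). The share of counts held by the members differed between the groups by 0.012 to 0.210 percentage points without 1 library (0.0828 with all 7), and that of all noncoding transcripts by -0.152 to 0.180. The isoform share gave 0 members in each of its settings. Adjusted p changes under a dropped library come with fewer samples, and other causes were not tested.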
